A study of Homo sapiens with 9 samples.

Results

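The 10 genes described here encode inducible brakes on the mitogen-activated protein kinases (MAPKs): the dual-specificity phosphatases DUSP1, DUSP4, DUSP5, DUSP6, DUSP8 and DUSP10, the Sprouty proteins SPRY2 and SPRY4, and the Sprouty-related proteins SPRED1 and SPRED2. They were chosen by name from the 57500 genes of the count files, with earlier results of these data known. RNA of HEK293T cells, a human embryonic kidney line, was sequenced after 5 h with 10 µM HBC530, 10 µM MsOc3HBC or the solvent DMSO, in 3 biological replicates per treatment and 9 libraries in all. HBC530 is a dye that lights up on binding the Pepper RNA aptamer, and MsOc3HBC is an HBC dye with a mesylate group on a linker through which it attaches covalently to that aptamer. The methods name no plasmid for these cells, so each group is the same line with only the added ligand or solvent named as different. The study profiled expression to look for off-target alkylation of cellular mRNAs, which would be expected to change their levels.

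As background, growth factor receptors act through RAS, RAF and MEK on the kinase ERK, while stress acts through parallel kinases on p38 and JNK. Active ERK raises the transcripts of several DUSP, SPRY and SPRED genes, whose products then switch the pathway down: DUSPs remove the activating phosphates from MAPKs, SPRY proteins act between receptor and RAS, and SPRED proteins recruit the RAS inhibitor neurofibromin. DUSP1 and DUSP10 act mainly on p38 and JNK, DUSP8 on JNK and p38, DUSP5 and DUSP6 on ERK. Many of these transcripts are short-lived, so their level is widely read as a record of recent MAPK activity.

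None of the 8 members that had enough counts for a test changed with either ligand at an adjusted p under 0.05, where the adjustment (Benjamini-Hochberg) runs over all genes tested and a gene under the threshold counts as called. The values nearest to a change were those of DUSP1 and DUSP8 with HBC530, at 1.27-fold and 1.45-fold the DMSO level. These 2 of 8 members lay above DMSO in all 3 libraries, against 7.17% of all genes tested. With MsOc3HBC, DUSP4, SPRED1 and SPRED2 lay below DMSO in all 3 libraries, at 0.75-fold, 0.818-fold and 0.816-fold. These were 3 of 8 members, against 8.96% of all genes tested. Without replicate 3 of MsOc3HBC the log2 fold changes of SPRED1 and SPRED2 went from -0.29 each to -0.18 and -0.17. DUSP8 was at 1.32-fold with MsOc3HBC, with libraries that overlapped DMSO. The clearest change in the pathway lay in a relative outside the 10, SPRY1, which fell to 0.502-fold with MsOc3HBC.

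The promoters of DUSP1 and DUSP8 are shown because these were the 2 members that lay above DMSO in every HBC530 library. They also shared a sequence feature, picked from the several motifs searched below, and a link to the HBC530 values was not tested. The promoter table of RefSeq (GRCh38.p14, 250 bases before to 50 after each start) held 8 of the 10 members, with 12 promoters. It had no entry for DUSP4 and DUSP5, whose promoters were therefore not searched. The full cAMP response element TGACGTCA, the site of the CREB and ATF factors, was found in 1 promoter each of DUSP1 and DUSP8 and in none of the other 10 member promoters. The 250 bases before each start follow, 5′ to 3′ on the minus strand, at chr5:172771196-172771445 for DUSP1 and chr11:1572272-1572521 for DUSP8, with the element in capitals.
DUSP1: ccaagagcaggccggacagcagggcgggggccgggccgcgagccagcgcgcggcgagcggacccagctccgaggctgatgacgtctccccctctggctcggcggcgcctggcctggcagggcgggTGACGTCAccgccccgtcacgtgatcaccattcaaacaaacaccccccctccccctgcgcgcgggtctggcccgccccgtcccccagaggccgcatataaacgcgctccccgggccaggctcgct
DUSP8: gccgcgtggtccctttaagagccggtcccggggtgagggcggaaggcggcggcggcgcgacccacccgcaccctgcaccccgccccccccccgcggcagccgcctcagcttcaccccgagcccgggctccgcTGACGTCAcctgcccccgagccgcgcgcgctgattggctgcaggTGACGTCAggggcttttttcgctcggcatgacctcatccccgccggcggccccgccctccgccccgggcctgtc
The element of DUSP1 began 125 bases before the RefSeq start, and those of DUSP8 began 118 and 74 bases before it. On the minus strand, the counted DUSP1 gene begins at chr5:172771195, directly beside its window. The counted DUSP8 gene begins at chr11:1571920, downstream of its RefSeq start, so its elements lie further from that position. Of all 35116 promoters in the table, 1.85% held at least 1 copy and 0.0598% at least 2, searched on both strands. The half-site TGACG, which every full element contains, was found in 6 of the 12 member promoters (1 each of DUSP1, DUSP8, DUSP10, SPRY2, SPRY4 and SPRED2) against 24.6% of all promoters. The AP-1 site TGANTCA was found in 1 promoter of SPRED2 (7.71% of all promoters), as was TGATGNAA, a site of ATF4 with C/EBP factors (3.62%). The ETS site CCGGAAG, bound by effectors of ERK, was in no member promoter (10.3% of all promoters). These matches describe letters in the windows, and binding was not measured.

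The libraries held 28056929 to 62205366 counts, and replicates differed by more than sampling noise. Replicate 3 of HBC530 and replicate 3 of MsOc3HBC were the shallowest and stood apart from the other 7 on the first principal component (36.94 and 48.79, against -20.28 to -4.28), so values that moved by over 1.5 times without them are given both ways, apart from members whose value was near 0. All 10 markers of HEK293T cells were detected, from PAX2 at 1.02 to 2.15 TPM (transcripts per kilobase, scaled to a fixed library sum) to VIM at 152 to 171 TPM. The 8 markers of blood, liver, endothelium, glia and heart stayed at or under 0.817 TPM. In bulk RNA, fewer cells that express a gene and less RNA per cell cannot be told apart.

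Levels between genes are compared as TPM, which divides by exonic length. In DMSO, DUSP1 was the most abundant member at 45.2 ± 0.987 TPM (SD, n = 3). SPRY2 followed at 12.8 ± 0.555, SPRED2 at 9.89 ± 0.312 and DUSP5 at 7.45 ± 0.743 TPM, each apart from its neighbour in every library. DUSP8 at 5.19 ± 0.781 and SPRED1 at 4.58 ± 0.252 TPM overlapped. DUSP10 stood at 2.95 ± 0.413 and DUSP4 at 0.811 ± 0.105 TPM. DUSP6 and SPRY4, usually among the most ERK-responsive of these genes, were close to undetected. DUSP6 had 2 to 12 counts per library, summing to 22 in DMSO, 19 in HBC530 and 18 in MsOc3HBC. SPRY4 had 0 to 7 counts, summing to 10, 7 and 4 in the same order. The depth of the groups fell in that order too, at 167330835, 144085987 and 124177210 counts over all genes. For SPRY4, a count of 0 allows up to 0.0503 CPM in replicate 2 of DMSO and 0.107 CPM in replicate 3 of MsOc3HBC. DUSP6 and SPRY4 were too low for the filter and are absent from the tests below.

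The order was nearly the same with the ligands. In HBC530 the neighbours SPRY2, SPRED2, DUSP5 and DUSP8 overlapped in turn, with DUSP8 at 7.29 ± 1.38 TPM beside DUSP5 at 7.37 ± 0.499 TPM. In MsOc3HBC DUSP8 (6.67 ± 1.61 TPM) stood just before DUSP5 (6.31 ± 0.401 TPM), with overlapping libraries. Other genes of the same families set the scale: DUSP9, an ERK phosphatase, was at 96.9 ± 4.62 TPM in DMSO, DUSP7, another one, at 38.2 ± 1.83 TPM, and SPRY1 at 16.4 ± 0.895 TPM. DUSP3 was at 52.31 ± 2.193 TPM and DUSP14 at 49.35 ± 0.2238 TPM in DMSO, both between DUSP9 and DUSP7. Among the ERK phosphatases named here, DUSP9 and DUSP7 lay above DUSP5, DUSP4 and DUSP6.

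**Figure D1:**
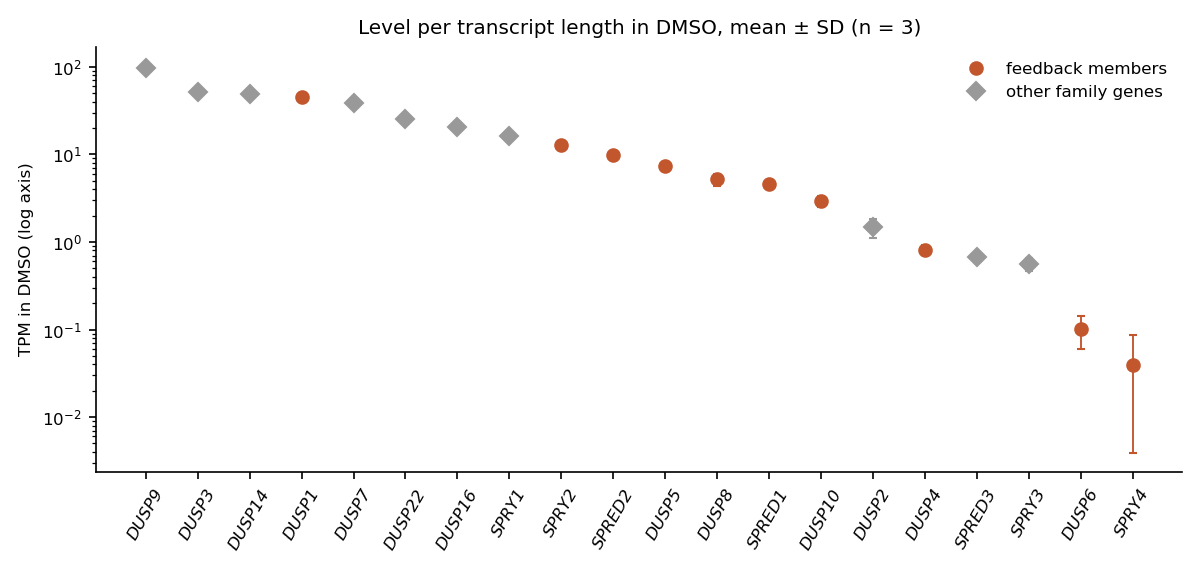
Mean level in DMSO (TPM, log axis) of the 10 feedback genes (circles) and of other DUSP, SPRY and SPRED genes (diamonds), with SD over 3 libraries. DUSP1 stands at 45.2 TPM, while DUSP6 and SPRY4 lie at 0.101 and 0.0392 TPM, and the lower bar of SPRY4, whose SD exceeds its mean, is cut short.

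The phosphatases for p38 and JNK come first. DUSP1 (5:172768090-172771195, minus strand, GRCh38) had 25.64, 27.3 and 26.94 normalized CPM (counts per library size) in the DMSO libraries. It had 33.12, 34.33 and 34.35 CPM with HBC530, and 27.14, 30.12 and 29.94 CPM with MsOc3HBC. In CPM all HBC530 libraries lay above all others, and MsOc3HBC overlapped DMSO. In TPM, replicate 2 of MsOc3HBC (53.36) lay above replicate 3 of HBC530 (50.22). The log2 fold change with HBC530 was 0.35 ± 0.0851 (SE; 95% interval 0.162 to 0.539), with an unadjusted p of 0.00192 that ranked 34 of 17684 genes and an adjusted p of 0.751 by edgeR (quasi-likelihood test, adjusted by Benjamini and Hochberg). With MsOc3HBC it was 0.13 (-0.077 to 0.334; adjusted p = 0.633 by the same edgeR test).

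DUSP8 (11:1554044-1571920, minus strand), the JNK and p38 phosphatase whose promoter holds 2 elements, had 5.653, 7.797 and 7.538 CPM in DMSO. It had 10.21, 11.23 and 9.066 CPM with HBC530, and 9.756, 10.39 and 7.43 CPM with MsOc3HBC. Every HBC530 library was above DMSO, whereas replicate 3 of MsOc3HBC lay within the DMSO range. The log2 fold change was 0.54 ± 0.14 with HBC530 (0.23 to 0.849; unadjusted p = 0.00289, rank 48; adjusted p = 0.751, edgeR) and 0.40 ± 0.157 with MsOc3HBC (0.059 to 0.747; adjusted p = 0.409). Without a filter on low counts the first passed the threshold (adjusted p = 0.0497, edgeR), and over its 13 alternatives the adjusted p ranged from 0.0497 to 0.96. Without replicate 3 of the ligand, DUSP8 stood at 0.61 with HBC530 and 0.52 with MsOc3HBC, and DUSP1 at 0.35 and 0.11. A pseudogene, DUSP8P5, had 14 to 75 counts beside the 199 to 649 of DUSP8, so a part of the reads of either could belong to the other. DUSP10 (1:221701424-221742176, minus strand), which removes phosphates from p38 and JNK, had 2.326 to 2.837 CPM in DMSO, 2.426 to 2.8 with HBC530 and 2.128 to 2.672 with MsOc3HBC. Its groups overlapped, with log2 fold changes of 0.074 (-0.233 to 0.381) and -0.018 (-0.359 to 0.324).

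Of the tested members that act on ERK, DUSP4 separated from DMSO in its libraries and DUSP5 did not. This nuclear phosphatase, encoded on chromosome 8, had 1.571, 1.97 and 1.604 CPM in DMSO. It had 1.428, 1.539 and 1.486 CPM with HBC530, and 1.166, 1.409 and 1.269 CPM with MsOc3HBC. In CPM all 6 ligand libraries lay below all 3 of DMSO, on 34 to 118 counts a library. In TPM, replicate 2 of HBC530 (0.7424) lay just above replicate 3 of DMSO (0.7395). The log2 fold change was -0.21 ± 0.155 with HBC530 (-0.555 to 0.134; adjusted p = 0.751, edgeR; -0.097 without replicate 2 of DMSO) and -0.415 ± 0.177 with MsOc3HBC (-0.803 to -0.026; unadjusted p = 0.0384, adjusted p = 0.435). DUSP5 (10:110497838-110511544, plus strand), the nuclear phosphatase specific for ERK, had 5.282, 6.328 and 5.421 CPM in DMSO, 5.999, 5.552 and 6.064 with HBC530, and 4.598, 4.684 and 5.713 with MsOc3HBC. Its log2 fold changes were 0.045 (-0.209 to 0.3) with HBC530 and -0.19 (-0.49 to 0.102) with MsOc3HBC, and its groups overlapped. The value with MsOc3HBC was -0.11 without replicate 2 of DMSO. Without replicate 3 of MsOc3HBC, the highest library of that ligand, it was -0.29 (unadjusted p = 0.0334, adjusted p = 0.306, edgeR).

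SPRY2 (13:80335976-80340951, minus strand), which acts between receptors and RAS, was the steadiest member in its mean. It had 10.98, 10.84 and 12.11 CPM in DMSO, 11.73, 12.12 and 10.43 with HBC530, and 10.27, 11.73 and 11.43 with MsOc3HBC. The log2 fold changes of 0.019 (-0.21 to 0.248) and -0.02 (-0.255 to 0.216) had intervals among the narrowest of the members, and its groups overlapped.

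SPRED1 and SPRED2, membrane-bound inhibitors of RAS signalling, were lowest in the libraries that stand apart. SPRED1 (15:38252326-38357249, plus strand) had 11.02, 11.47 and 10.6 CPM in DMSO, 10.53, 11.36 and 7.975 with HBC530, and 9.689, 9.717 and 7.43 with MsOc3HBC. SPRED2 (2:65310851-65432637, minus strand) had 15.02, 14.66 and 14.88 CPM in DMSO, 15.24, 15.01 and 10.31 with HBC530, and 12.43, 13.96 and 9.67 with MsOc3HBC. In each ligand, replicate 3 was the lowest library for both genes. With HBC530 the log2 fold changes of -0.14 and -0.13 became -0.003 and 0.033 without that library. In CPM all MsOc3HBC libraries lay below DMSO for both genes. In TPM, replicate 2 of MsOc3HBC (9.69) lay just above replicate 3 of DMSO (9.662) for SPRED2. With MsOc3HBC the log2 fold changes were -0.29 ± 0.122 for SPRED1 (unadjusted p = 0.0367, adjusted p = 0.431, edgeR) and -0.29 ± 0.128 for SPRED2 (0.043 and 0.444). Without replicate 3 of MsOc3HBC they were -0.18 (adjusted p = 0.374, edgeR) and -0.17 (0.404). The part of that library in the result beyond these values was not tested.

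Counted over the members, HBC530 left 0 of 8 past an adjusted p of 0.05, against 0.017% of all 17684 genes tested. DESeq2 called 24 genes and no member. At an unadjusted p under 0.05, 2 of 8 members passed, DUSP1 and DUSP8, against 5.07% of all genes. All 3 libraries were higher than DMSO in 2 of 8 (7.17% of all genes) and lower in 1 of 8, DUSP4 (6.64%). The median log2 fold change of the 8 was 0.032, beside 0.0046 over all genes, and 5 of 8 lay above 0 (51.1% of all genes).

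With MsOc3HBC, 0 of 8 members were past the adjusted threshold, against 0.154% of 17514 genes, where DESeq2 called 151 genes and again no member. At an unadjusted p under 0.05, 4 of 8 passed (DUSP8 higher and DUSP4, SPRED1 and SPRED2 lower), against 10.9% of all genes. No member was higher in all 3 libraries (9.35% of all genes) and 3 of 8 were lower (8.96%). The median was -0.11 against 0.012 over all genes, and 2 of 8 lay above 0 (52.4% of all genes). Both comparisons use the same 3 DMSO libraries. The 95% intervals of all 8 members lay within a log2 fold change of -1 to 1 for each ligand, and those of 5 with HBC530 and 4 with MsOc3HBC within -0.5 to 0.5.

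**Figure D2:**
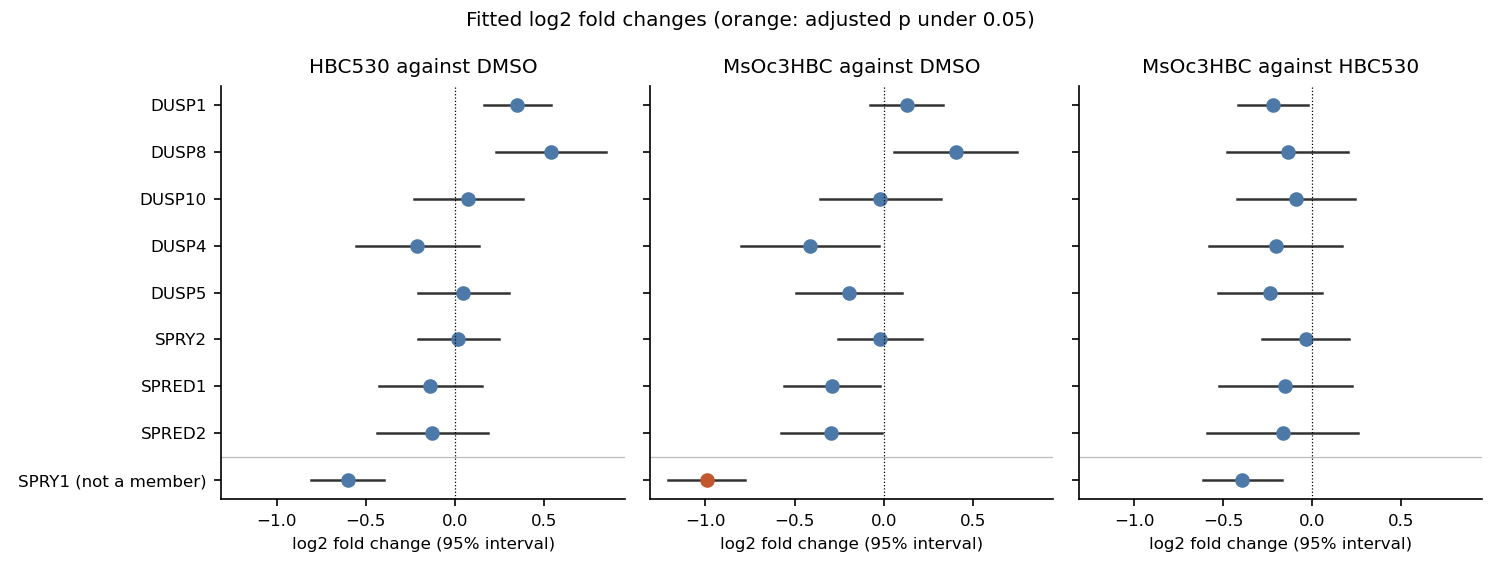
Log2 fold change (points) with its 95% interval (lines) for the 8 members tested and SPRY1, in each of the 3 comparisons. No interval of a member reaches 1 in either direction, and SPRY1 with MsOc3HBC (-0.99) is the one value past an adjusted p of 0.05.

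The ligands share the HBC dye scaffold and were given at 1 dose and time, so they were also compared with each other. All 8 members had a lower mean with MsOc3HBC than with HBC530, with a median log2 fold change of -0.16 against 0.017 over all genes (53.8% of which lay above 0). SPRY2 turned to 0.006 and 0.022 when replicate 2 of HBC530 or replicate 1 of MsOc3HBC was left out. None of the 8 passed the adjusted threshold, as no gene did (0% of 17397), and DESeq2 called 55 genes without a member. At an unadjusted p under 0.05, 1 of 8 passed, DUSP1, against 7.32% of all genes. In CPM all MsOc3HBC libraries were lower than those of HBC530 for DUSP1 and DUSP4 (8.5% of all genes) and higher for none (6.85%). In TPM the libraries of the ligands overlapped for both genes.

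The difference in DUSP1 was -0.22 ± 0.0853 (-0.418 to -0.026; unadjusted p = 0.0311, adjusted p = 0.643, edgeR). Deviations of same-numbered libraries of the 2 ligands correlated at 0.167, 0.368 and 0.433, though the labels state no pairing. Each group was centred on its own mean, and replicate 3 of both ligands stood apart. The 3 correlations are therefore not separate evidence that the replicate numbers match. With the number as a block DUSP1 was lower with MsOc3HBC than with HBC530 in 3 of 3 same-numbered pairs (log2 fold change -0.22, adjusted p = 0.0242, edgeR). The block called 11.4% of all genes, so 1 of 8 members is near the background. Without replicate 3 of both ligands the value was -0.24 (adjusted p = 0.0395, edgeR), where 9.16% of all genes were called. Over all 14 alternatives the adjusted p ran from 0.0242 to 0.971. With the block, DUSP4, DUSP5, DUSP8, SPRED1 and SPRED2 were also lower with MsOc3HBC in 3 of 3 pairs, and DUSP10 and SPRY2 in 2 of 3, and none of these 7 passed the adjusted threshold. DUSP5 was at -0.25 (95% interval -0.462 to -0.03; adjusted p = 0.132, edgeR) and SPRED2 at -0.17 (-0.329 to -0.007; 0.166). The blocked intervals of the others ran from -0.579 to 0.164 in DUSP4, the widest, to -0.326 to 0.016 in SPRED1, so neither a difference nor equal action is shown for them. Leaving out single libraries moved the differences between the ligands of DUSP4, DUSP8, DUSP10, SPRY2, SPRED1 and SPRED2 by over 1.5 times, for example to -0.134 in DUSP4 without replicate 1 of MsOc3HBC and to -0.013 in DUSP8, -0.015 in DUSP10, -0.042 in SPRED1 and -0.038 in SPRED2 without replicate 3 of MsOc3HBC.

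The remaining genes of the pathway were followed as 4 lists, in which edgeR called 0 genes with HBC530 and 1 with MsOc3HBC, and DESeq2 2 and 3. In the cascade from receptor to ERK, 0 of 27 genes passed an adjusted p of 0.05 with either ligand, and at an unadjusted p under 0.05 the counts were 0 higher and 2 lower with HBC530 and 0 in either direction with MsOc3HBC, where 5.07% and 10.9% of all genes had such a p in either direction. The medians were -0.13 and -0.11, beside 0.0046 and 0.012 over all genes. With HBC530 the smallest p values were those of INSR, the insulin receptor (-0.25), GAB1, a docking adaptor (-0.39), and HRAS (0.265), and with MsOc3HBC those of FGFR1 (-0.21), FGFR3 (-0.24) and the scaffold KSR1 (-0.36). Without replicate 3 of HBC530, INSR was at -0.16, GAB1 at -0.195 and HRAS at 0.062, and without replicate 3 of MsOc3HBC FGFR3 and KSR1 were both at -0.147. No cascade gene thus met the test.

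Of the 16 genes of the p38 and JNK arms, none passed the adjusted threshold, and 1 higher and 2 lower had an unadjusted p under 0.05 with each ligand (5.07% and 10.9% of all genes). The medians were -0.06 with HBC530 and -0.008 with MsOc3HBC. JUN, the transcription factor that JNK phosphorylates, came closest (1:58780788-58784327). It had 367.5, 368.5 and 355.3 CPM in DMSO, 544.9, 582.7 and 532 with HBC530, and 517.4, 561.3 and 431.2 with MsOc3HBC. Every ligand library was above every DMSO library. The log2 fold change was 0.61 ± 0.08 with HBC530 (adjusted p = 0.0527, edgeR; 3.33e-08 to 0.611 over 13 alternatives, 4 of them past the threshold) and 0.47 ± 0.108 with MsOc3HBC (adjusted p = 0.171; 0.00292 to 0.739, also 4 of 13). Without replicate 3 of the ligand JUN was higher at 0.64 with HBC530 (adjusted p = 0.00182, edgeR) and 0.57 with MsOc3HBC (0.00292). MAP2K6, a kinase that activates p38, had log2 fold changes of -0.40 and -0.46 (adjusted p = 0.751 and 0.169, edgeR) with both ligands below DMSO in all libraries. MAP2K3, another p38 activator, was at -0.27 with MsOc3HBC, and MAP3K5, a stress kinase, at -0.26 with HBC530 (-0.16 without replicate 1 of DMSO).

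Among 19 other phosphatases and brakes, SPRY1 fell with MsOc3HBC and no other gene passed. SPRY1 (4:123396795-123403760, plus strand) is a close relative of SPRY2 and has the same place between receptor and RAS. It had 19.6, 18.82 and 18.49 CPM in DMSO, 12.55, 13.01 and 11.86 with HBC530, and 9.712, 9.753 and 8.998 with MsOc3HBC. The 3 groups did not overlap, with HBC530 between the other two. With MsOc3HBC the log2 fold change was -0.99 ± 0.0979 (-1.208 to -0.778; adjusted p = 0.00198, edgeR), and all 13 alternatives were past the threshold (adjusted p up to 0.0362), also without replicate 3 of MsOc3HBC (-0.96, adjusted p = 0.00104, edgeR). With HBC530 it was -0.60 ± 0.092 (-0.806 to -0.398; adjusted p = 0.107, edgeR), past the threshold in 3 of 13 alternatives. Between the ligands it was -0.39 (adjusted p = 0.643, edgeR, and 0.00683 with the replicate block). The list's median was 0.006 with each ligand. The ERK phosphatase DUSP7 was at -0.24 with MsOc3HBC (adjusted p = 0.41), IL17RD, an inhibitor of FGF signalling, at 0.25 (0.457), and RASA2 and NF1, which switch RAS off, at -0.27 and -0.31 with HBC530 (0.751 in both, edgeR). The MsOc3HBC libraries of DUSP7 (53.69, 55.28 and 51 CPM) all lay below those of DMSO (58.19, 63.79 and 67.12 CPM). IL17RD was at 0.165 without replicate 2 of MsOc3HBC, RASA2 at -0.16 without replicate 1 of DMSO, and NF1 at -0.13 without replicate 3 of HBC530.

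Of the 18 ERK output genes, which are transcribed in response to ERK, 17 were tested and 0 passed the adjusted threshold with either ligand. With MsOc3HBC, 8 were lower and 0 higher at an unadjusted p under 0.05, against 10.9% of all genes in either direction, and the list's median was -0.29 against 0.012 over all genes. The smallest p values were those of the receptor EPHA2 (-0.46; adjusted p = 0.297, edgeR), the cyclin CCND1 (-0.335; 0.331) and the ETS factor ETV1 (-0.61; 0.379; -0.40 without replicate 1 of DMSO). With HBC530, 1 was higher and 0 lower, against 5.07% of all genes, and the median was -0.082 against 0.0046. The higher one was FOSL1, an AP-1 subunit, at 1.04 ± 0.0897 CPM against 0.687 ± 0.0336 in DMSO (log2 fold change 0.60, adjusted p = 0.751, edgeR). The next smallest p values with HBC530 belonged to genes with lower means, CCND1 at -0.22 in all 3 libraries below DMSO (-0.14 without replicate 3 of HBC530) and the ephrin receptor EPHA4 at -0.30 (-0.11 without it).

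Features of the 3′ ends were read from the annotation. The 3′ untranslated regions of the members, in GENCODE v44, had a median length of 2243 bases and 4 copies of ATTTA, the core of AU-rich decay elements, against 1307 bases and 2 copies over 13629 genes tested. SPRED1 had 24 copies in 5585 bases, and DUSP5 had 0 in 1107. The longer element that flanks this core with further A and T occurred in 5 of 10 members (DUSP1, DUSP4, DUSP8, DUSP10 and SPRED1), against 21.7% of genes. Of the members that separated from DMSO, DUSP1, DUSP4, DUSP8 and SPRED1 had it and SPRED2 did not. Of the tested members that overlapped DMSO, DUSP10 had it, and DUSP5 and SPRY2 did not. A relation between this element and the changes was not tested.

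The genes whose profile over the 9 libraries was most like that of DUSP8 were MAP3K10, a kinase upstream of JNK, JUN and AMOTL2. Their root mean square differences in centred log2 CPM were 0.127, 0.139 and 0.139, where the profile of DUSP8 itself deviated by 0.293. For DUSP4 (own deviation 0.19) they were WNT10B (0.0717), KLRG2 (0.0881) and TESK2 (0.0946), out of 13613 genes compared. These are likenesses over 9 libraries that differ in depth and treatment, and what they rest on was not tested.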

How the data were processed

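Poly(A) RNA of HEK293T cells was sequenced in 3 libraries for each of DMSO, HBC530 and MsOc3HBC. The authors used Trimmomatic 0.36 for trimming, STAR 2.5.2b for mapping to GRCh38 and featureCounts (Subread 1.5.2) for counting, and deposited raw counts for 57500 genes. The annotation release, the strand setting and how read pairs were counted are not given in the sources used here. The 2 deposited tables also hold signal columns, which are counts that the authors scaled with DESeq2 and which were not used here, and the authors' log2 fold changes and p-values for each ligand against DMSO, which were not used or compared. These tables name 8 of the 10 members; DUSP6 and SPRY4 were matched by gene ID.

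Each pair of groups was compared on the deposited counts in R 4.3.3 with edgeR 4.0.16: filterByExpr at its defaults, TMM factors, the quasi-likelihood F test and Benjamini-Hochberg adjustment over all genes tested, with an adjusted p under 0.05 as the call. Normalized CPM use the TMM factors, and TPM the exonic length of the count files. Whether the libraries of groups separate or overlap is given in normalized CPM unless TPM is named. Alternatives were DESeq2 1.42.0, RLE and upper-quartile factors, a joint fit of the 9 libraries, the replicate number as a block, no filter or one of at least 10 counts throughout, each library left out, and replicate 3 of both ligands left out. The scripts were tested on simulated data. The sample labels number the replicates and state no pairing. Deviations of same-numbered ligand libraries from their group means correlated at 0.167, 0.368 and 0.433 over 18041 genes. With DMSO these correlations ran from -0.111 to 0.172, so the highest was above the lowest between the ligands. Replicate 3 of both ligands stood apart from the other libraries. With deviations centred within each group, the 3 correlations between the ligands are not independent of each other. Whether the numbers mark a true pairing was not tested.

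The members and lists were chosen with earlier results of these data known. Named were all members, each list gene with an adjusted p under 0.05, the 3 with the smallest p of each list against DMSO, and the 3 genes with at least 1 CPM whose profile was nearest to that of the member with the largest change. The list genes named between the ligands are those of this selection that passed the blocked fit. Likeness used log2 CPM with 0.1 added. Promoters are from RefSeq, 3′ untranslated regions from GENCODE v44 (56410 gene IDs matched, 99.89% of them at overlapping positions).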

Additional observations from a re-analysis of the deposited data

Results flagged for a closer look

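The difference between the ligands passed the test for 1 member and 18 list genes once the replicate number was a block, in a fit that called 1990 of 17397 genes. Of the 18, the 7 given here are those also named against DMSO. As log2 fold changes of MsOc3HBC against HBC530 in edgeR (quasi-likelihood test, adjusted by Benjamini and Hochberg), DUSP1 was at -0.224 (adjusted p = 0.0242), SPRY1 at -0.393 (0.00683), EPHA2 at -0.381 (0.00421), MAP2K3 at -0.249 (0.0117), DUSP7 at -0.244 (0.0117) and HRAS at -0.222 (0.0142). RASA2 was at 0.351 (adjusted p = 0.0124, edgeR) and NF1 at 0.236 (0.0138), both higher with MsOc3HBC. In the fit of all 6 ligand libraries without the block none of these 8 passed, the adjusted p of DUSP1 and SPRY1 being 0.643 each. Of the genes called with the block, 790 were higher and 1200 lower with MsOc3HBC.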

How the results depend on the processing

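Of 744 refits of single genes, 701 kept their direction and their side of the threshold, 30 passed it anew and 13 reversed. All that reversed were values of members that were not called. They were near 0 in the main fit except for SPRED2 with HBC530, which went from -0.13 to 0.033 without replicate 3 of HBC530. With upper-quartile factors DUSP10 and SPRY2 with MsOc3HBC were at 0.005 and 0.003. With 1 library left out, DUSP5 with HBC530 ranged from -0.002 to 0.132, SPRY2 with HBC530 from -0.027 to 0.083, SPRED2 with HBC530 from -0.22 to 0.033, DUSP10 with MsOc3HBC from -0.095 to 0.073, SPRY2 with MsOc3HBC from -0.063 to 0.036 and SPRY2 between the ligands from -0.096 to 0.022.

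Genes called with HBC530 numbered 3, and 24 with DESeq2, 52 without a filter, 5 in 1 fit of all 9 libraries and 16 with the replicate block. With MsOc3HBC they numbered 27, and 151, 250 and 149 with DESeq2, no filter and the block. Between the ligands they numbered 0, and 55 with DESeq2, 12 without a filter, 4 in 1 fit, 1990 with the block and 1635 without replicate 3 of both ligands. Members called were 1 with HBC530 without a filter, and 1 between the ligands both with the block and without replicate 3 of both. Members at an unadjusted p under 0.05 were 2 with MsOc3HBC under upper-quartile factors and in 1 fit, and between the ligands 0 without a filter and 3 both with the block and without replicate 3 of both. List genes called with HBC530 were 2 each with DESeq2, no filter and the block; with MsOc3HBC 3, 3 and 2; and between the ligands 18 with the block and 16 without replicate 3 of both.

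With 1 library left out, genes called numbered 2 to 6 with HBC530 and 6 to 76 with MsOc3HBC (76 without replicate 3 of MsOc3HBC) and stayed at 0 between the ligands, members at an unadjusted p under 0.05 from 1 to 3 with MsOc3HBC and 0 to 2 between the ligands, and list genes called from 0 to 1 with HBC530 and 1 to 2 with MsOc3HBC. The block changed no other call of a member, and the cause of these shifts was not tested.

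At 28056929 counts, the shallowest library gave DUSP4 34 counts, and DUSP6 and SPRY4 were under the filter in every comparison.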
